A study of Homo sapiens with 4 samples.

Results

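The genes described here are 9 members of the MHC class I antigen presentation pathway, out of 20812 genes measured. They were taken by symbol, and all 9 were in every file: the heavy chains HLA-B, HLA-C and HLA-E, their shared light chain B2M, the peptide transporter subunits TAP1 and TAP2, the loading factor TAPBP, and the immunoproteasome subunits PSMB8 and PSMB9. RNA came from HCT116, an established human colorectal carcinoma line, and was read with an amplicon kit that takes 1 short PCR target per gene. The 4 groups were HCT116 cells labelled as overexpressing human IDO1 with 1 mM indole for 24 h, the same line with DMF, the solvent, for 24 h, wild type HCT116 with indole, and wild type HCT116 with DMF. Each group was 1 library, so a pair of groups has no replicate check, and ranges given with levels and folds are 95% intervals of counting error only. How the IDO1 line was made, and whether it is 1 clone, is not given in the sources used here, and neither is a control vector in the wild type cells.

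MHC class I molecules display short peptides from inside the cell to CD8 T cells. Proteasomes cut proteins into peptides, the TAP transporter carries them into the endoplasmic reticulum, and a loading complex held together by tapasin, the product of TAPBP, places them on a heavy chain paired with beta-2-microglobulin. Interferon gamma raises most of these genes together, and it exchanges the catalytic subunits of the standard proteasome for PSMB8, PSMB9 and PSMB10. HLA-E is a less variable heavy chain that is read by natural killer cells as well as by T cells.

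Of the 9 members, B2M lies on chromosome 15 and the other 8 on chromosome 6, where TAP2, PSMB8, TAP1 and PSMB9 are neighbours in that order in the RefSeq annotation. Promoter stretches are shown because HLA-B and HLA-C, which differed between the lines in opposite directions, have similar ones, and because TAP1 and PSMB9 start 488 bases apart on opposite strands. Each is the 250 bases before the annotated start, 5′ to 3′, from RefSeq on GRCh38.p14, a later build than the hg19 of the counts. Capitals mark matches, on either strand, to an interferon-stimulated response element core (GAAA, any 2 bases, then GAAA again), a Y box (CTGATTGG), a gamma-activated site (TTCNNNGAA) or the kappa B consensus, and overlapping matches are merged.
HLA-B, chr6:31357180-31357429, minus strand: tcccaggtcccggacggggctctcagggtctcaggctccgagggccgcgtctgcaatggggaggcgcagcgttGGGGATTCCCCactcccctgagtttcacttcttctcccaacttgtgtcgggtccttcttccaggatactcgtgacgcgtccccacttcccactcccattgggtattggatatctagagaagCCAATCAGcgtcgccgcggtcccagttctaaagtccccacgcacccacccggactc
HLA-C, chr6:31272093-31272342, minus strand: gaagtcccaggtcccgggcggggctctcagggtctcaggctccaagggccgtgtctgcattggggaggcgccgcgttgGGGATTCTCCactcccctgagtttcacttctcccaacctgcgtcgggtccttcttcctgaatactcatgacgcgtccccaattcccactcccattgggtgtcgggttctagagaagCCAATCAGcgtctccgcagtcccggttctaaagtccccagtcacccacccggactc
B2M, chr15:44711267-44711516, plus strand: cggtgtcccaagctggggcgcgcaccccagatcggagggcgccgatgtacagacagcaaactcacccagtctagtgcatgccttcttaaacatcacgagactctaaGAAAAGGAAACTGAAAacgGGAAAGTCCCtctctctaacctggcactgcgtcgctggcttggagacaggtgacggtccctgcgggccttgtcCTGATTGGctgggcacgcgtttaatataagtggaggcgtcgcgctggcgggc
TAP1, chr6:32853705-32853954, minus strand: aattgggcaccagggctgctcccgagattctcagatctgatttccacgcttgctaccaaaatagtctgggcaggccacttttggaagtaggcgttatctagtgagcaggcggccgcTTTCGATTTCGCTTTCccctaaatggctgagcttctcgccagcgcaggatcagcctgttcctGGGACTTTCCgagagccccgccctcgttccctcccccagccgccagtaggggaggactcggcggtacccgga
PSMB9, chr6:32853942-32854191, plus strand: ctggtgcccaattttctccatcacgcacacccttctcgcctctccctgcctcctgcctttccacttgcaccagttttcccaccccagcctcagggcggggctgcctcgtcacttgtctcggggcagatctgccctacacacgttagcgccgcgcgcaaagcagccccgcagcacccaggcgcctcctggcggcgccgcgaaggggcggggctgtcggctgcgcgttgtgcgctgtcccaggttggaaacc
TAPBP, chr6:33314079-33314328, minus strand: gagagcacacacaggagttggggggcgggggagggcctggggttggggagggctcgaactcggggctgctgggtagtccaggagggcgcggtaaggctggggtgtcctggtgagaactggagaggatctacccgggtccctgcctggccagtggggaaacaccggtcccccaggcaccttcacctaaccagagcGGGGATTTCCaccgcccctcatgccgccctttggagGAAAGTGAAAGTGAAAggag

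The table held 10 entries for 8 of the 9 members, with HLA-E absent. The HLA-B and HLA-C stretches were 89.0% identical over 254 aligned columns, and both held a Y box and a kappa B match. A response element core was found for 4 members, B2M, TAP1, TAP2 and TAPBP, against 3.02% of 35116 promoter stretches in all. The Y box was found for 3 members (3.81% of all stretches), the kappa B consensus for 5 (9.96%), and the gamma-activated site for 2 (6.57%), TAP1 and PSMB8, each at its second annotated start. PSMB9 had no match to any of these letters in its window. A match is a description of the reference sequence and not a binding site.

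Library totals ranged from 18283862 to 22736172 reads, and 14892 to 15505 targets had reads. IDO1 had 2440 and 3451 reads in IDO1 cells with indole and with DMF, against 2 and 0 in wild type cells with indole and with DMF, so the overexpressed gene went the way of the labels. The colon epithelial markers EPCAM, CDH1, KRT8, KRT18, KRT20 and CDX2 had over 3 reads in every library, while CEACAM5 had 0 and VIL1 at most 2. Of 5 leukocyte markers, PTPRC and CD3E had 0 reads in every library, and CD14, LYZ and ITGAM had 5 to 25. The list summed to 0.888 and 2.10 CPM in IDO1 cells, against 1.76 and 1.32 CPM in wild type cells, with indole and with DMF in each. Among fibroblast markers, COL1A1 had 1412 to 1879 reads and PDGFRB 7 to 15, while COL1A2 and DCN had 0. Among endothelial markers, PECAM1 had 72 to 104 reads, VWF at most 2 and CDH5 0. CPM are counts scaled to 1000000 reads per library, here with factors from TMM, a trimmed mean of ratios between libraries. In bulk samples, fewer cells with a transcript and less of it per cell cannot be told apart. A list of 12 genes known from embryonic kidney cell lines, 6 of them taken because earlier results of these data named them, was compared between the lines. By edgeR, 11 of its genes were tested and 9 rose in IDO1 cells, where 2.03% of 13122 genes rose. Among the 9 were the 6 taken from these data, whose direction is not independent of their choice, and 3 of the 5 others. These 3, INA, NEFL and NEFM, had at most 2 reads in any wild type library. They were tested through the IDO1 libraries, which fixes their direction. PAX2 and LHX1, the remaining genes tested, did not pass (adjusted p = 0.573 and 0.906 by edgeR). The list summed to 129.7 and 127 CPM in IDO1 cells, against 4.91 and 6.11 CPM in wild type cells, and 11 against 3 of its genes had over 3 reads. Both values include the 6 genes taken from these data, so neither the sum nor the count is independent of that choice. VIM, 1 of the 6, alone had 58.5 and 53.7 CPM in IDO1 cells, against 2.84 and 4.14 CPM in wild type cells, with indole and with DMF in each. The labels give both lines as HCT116, the identity of the IDO1 line was not tested, and a difference due to IDO1 cannot be told apart from a difference in cell origin. Values of different genes are not compared as levels, since each rests on its own PCR target.

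HLA-B, a classical heavy chain, was the member with the largest ratio between the lines. It had 94 and 83 reads in IDO1 cells with indole and with DMF, against 4 and 1 reads in wild type cells with indole and with DMF. The level was 4.91 CPM (3.97 to 6.01) with indole and 3.64 CPM (2.90 to 4.51) with DMF in IDO1 cells, against 0.207 CPM (0.0563 to 0.529) and 0.0470 CPM (0.00119 to 0.262) in wild type cells. Both IDO1 libraries lay above both wild type libraries, with no overlap of intervals. The ratio between lines was 23.8 (8.98 to 89.0) in indole and 77.4 (13.5 to 3092) in DMF, the DMF ratio resting on 1 wild type read. In an additive fit of line and treatment over all 4 libraries, HLA-B rose in IDO1 cells by 5.06 on the log2 scale (SE 0.61), and was higher in both treatments. The adjusted p was 1.67e-06 by edgeR's quasi-likelihood test with Benjamini-Hochberg adjustment. With 4 and 1 reads in wild type cells, HLA-B entered this test through the IDO1 libraries, which fixes its direction. With line alone as the factor, the log2 difference was 6.33 without the wild type indole library and 4.32 without the wild type DMF library. It was 5.24 without the IDO1 DMF library and 4.81 without the IDO1 indole library. HLA-B was the 1 of 8 members tested that rose and 0 fell, where 2.03% of 13122 genes rose and 0.419% fell. Its reads were higher in the same 2 libraries as the summed embryonic kidney genes above, a list chosen in part from these data. Their part in the result was not tested, so the HLA-B difference is one between these 2 lines as labelled. Per 100 HLA-C reads, HLA-B had 1.39 and 1.01 reads in IDO1 cells with indole and with DMF, against 0.0416 and 0.0102 in wild type cells. Heavy chains are similar paralogs with many alleles, and how well the PCR targets capture the alleles of these cells is not given, so the reads of each heavy chain are uncertain. In the reference transcripts of GENCODE 29, 0 of 1448 stretches of 100 bases of HLA-B occurred exactly in another of 38 HLA genes, as did 4 of 1455 for HLA-C and 15 of 2502 for HLA-E.

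HLA-C, the other classical heavy chain among the members, went the opposite way. Its level was 353 CPM (345 to 361) with indole and 359.7 CPM (352 to 368) with DMF in IDO1 cells, against 497 CPM (487 to 507) and 463 CPM (454 to 472) in wild type cells. The IDO1 libraries did not differ beyond counting error, and both lay below both wild type libraries. HLA-C was thus 1.41-fold lower (1.37 to 1.45) in IDO1 cells in indole and 1.29-fold lower (1.25 to 1.32) in DMF. The additive line effect was -0.44 on the log2 scale (SE 0.25) and did not pass, with an adjusted p of 0.608 by edgeR. With line alone as the factor, it was -0.49 without the wild type library with DMF and -0.38 without the wild type library with indole. It was -0.45 without the IDO1 library with DMF and -0.42 without the IDO1 library with indole. These fits leave 1 library in a line and do not separate treatment from line, so no p-value is given. The ratio of indole to DMF was 0.981 (0.950 to 1.01) in IDO1 cells and 1.07 (1.05 to 1.11) in wild type cells.

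HLA-E showed the widest range among the members with at least 10 CPM. It stood at 174 CPM (168 to 180.3) with indole and 175 CPM (169 to 180.4) with DMF in IDO1 cells, against 402 CPM (393 to 411) and 236 CPM (229 to 243) in wild type cells. The IDO1 libraries could not be told apart, wild type with DMF lay above them, and wild type with indole was highest. In wild type cells HLA-E was 1.70-fold higher (1.64 to 1.77) with indole, above 96.5% of the 8679 genes compared, and in IDO1 cells the ratio was 0.996 (0.951 to 1.04). Between lines, HLA-E was 2.31-fold lower (2.22 to 2.40) in IDO1 cells in indole and 1.35-fold lower (1.29 to 1.41) in DMF. The additive line effect was -0.83 (SE 0.25, adjusted p = 0.0939 by edgeR, lower in both treatments) and missed the threshold of 0.05. With line as the only factor, it was -0.44 without the wild type library with indole and -1.21 without the wild type library with DMF. It was -0.88 without the IDO1 library with DMF and -0.87 without the IDO1 library with indole. Each of these fits leaves 1 library in a line, which is assumed to vary like the others, so no p-value is given. HLA-E reads per 100 HLA-C reads, a measure that no scaling moves, were 49.4 (47.4 to 51.5) with indole and 48.6 (46.8 to 50.5) with DMF in IDO1 cells, against 80.9 (78.5 to 83.3) and 51.0 (49.3 to 52.8) in wild type cells.

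B2M, the light chain that every class I heavy chain here needs, had the narrowest range of the members with at least 10 CPM. Its level was 274 CPM (266 to 281) with indole and 264 CPM (258 to 271) with DMF in IDO1 cells, against 293 CPM (285 to 300.2) and 269 CPM (262 to 276) in wild type cells. The highest library, wild type with indole, was 1.11-fold above the lowest (1.07 to 1.15), and neighbours among the other 3 libraries did not differ beyond counting error. The ratio of indole to DMF was 1.04 (0.997 to 1.07) in IDO1 cells and 1.09 (1.05 to 1.13) in wild type cells. The ratio between lines in DMF was 0.983 (0.948 to 1.02), and 1.05 with library totals as the scale, so no direction is given.

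**Figure D1:**
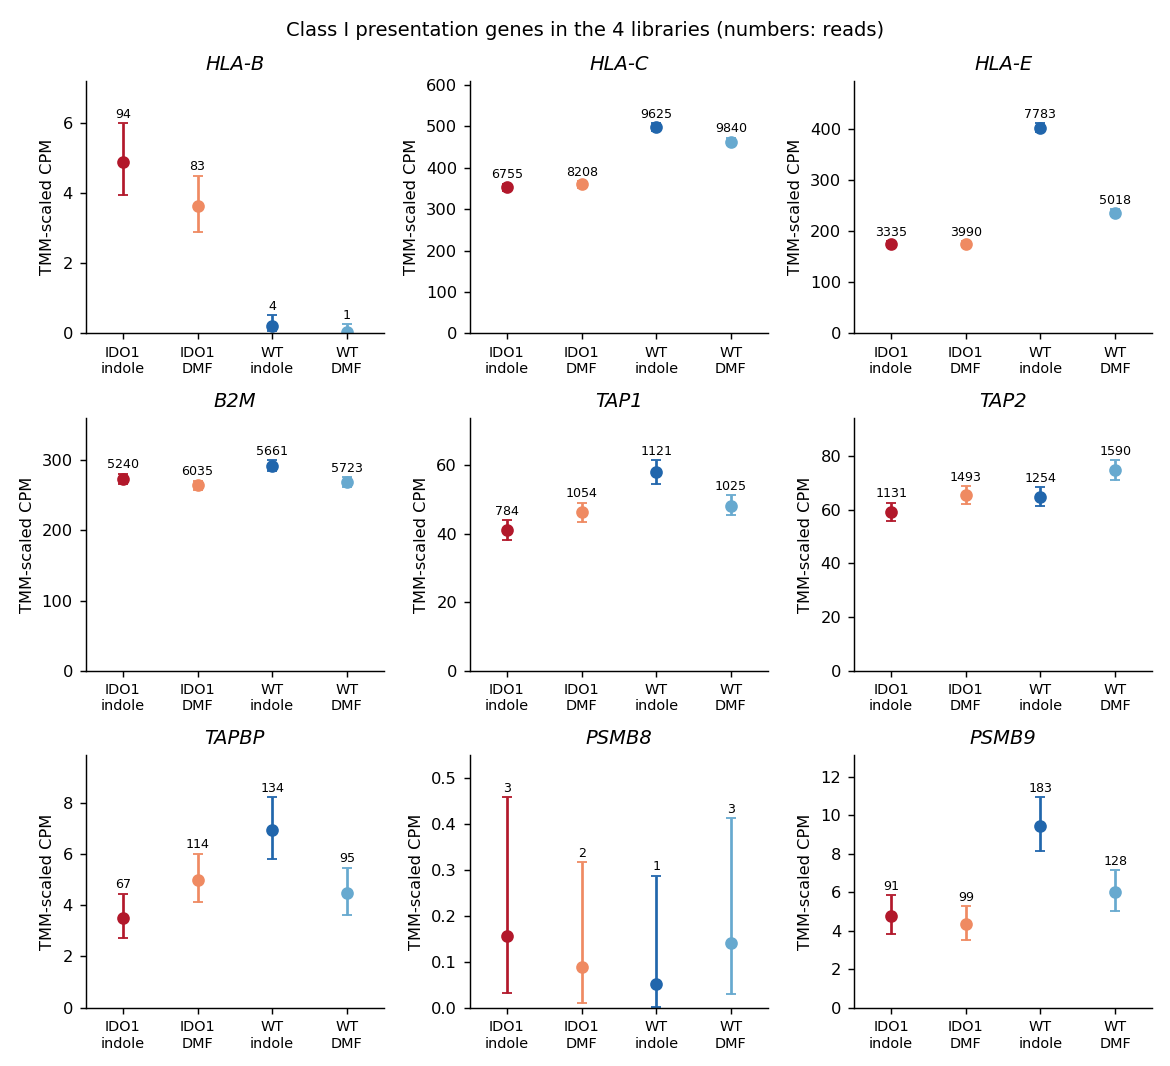
Each panel plots the TMM-scaled CPM of 1 member (y axis, from 0) in the 4 libraries (x axis), with points for the level, bars for the 95% Poisson interval of counting error and the read count above each. HLA-B has 94 and 83 reads in the IDO1 libraries against 4 and 1 in wild type, and HLA-E, TAP1, TAPBP and PSMB9 are highest in wild type with indole.

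Of 8 other class I heavy chains and related genes listed, 3 had at least 10 CPM. MICA and MICB encode stress-induced ligands of the natural killer receptor NKG2D. MICA was 1.19-fold higher (1.08 to 1.31) with indole in IDO1 cells and 1.44-fold lower (1.30 to 1.58) with indole in wild type cells. MICB was 1.22-fold higher (1.13 to 1.32) in IDO1 cells and 1.27-fold lower (1.17 to 1.37) in wild type cells. HFE, a regulator of iron uptake with a class I fold, was 1.17-fold lower (1.01 to 1.36) with indole in IDO1 cells and 1.21-fold lower (1.04 to 1.41) in wild type cells. HLA-G had 0 reads in every library, and HLA-F had 21 to 35. Of the 6 listed genes tested, 0 passed for line and 0 for indole by edgeR.

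TAP1 and TAP2 form the peptide transporter as a pair, and with indole in wild type cells they went opposite ways. TAP1 stood at 41.0 CPM (38.1 to 43.9) with indole and 46.2 CPM (43.4 to 49.1) with DMF in IDO1 cells, against 57.9 CPM (54.6 to 61.4) and 48.2 CPM (45.3 to 51.2) in wild type cells. It was 1.13-fold lower (1.03 to 1.24) with indole in IDO1 cells and 1.20-fold higher (1.10 to 1.31) with indole in wild type cells. TAP2 stood at 59.1 CPM (55.7 to 62.6) with indole and 65.4 CPM (62.2 to 68.8) with DMF in IDO1 cells, against 64.8 CPM (61.3 to 68.5) and 74.8 CPM (71.1 to 78.5) in wild type cells. Its levels were lower with indole in both lines, 1.11-fold lower (1.02 to 1.20) in IDO1 cells and 1.15-fold lower (1.07 to 1.24) in wild type cells, where the ratio was 0.978 with library totals. Per 100 TAP2 reads, TAP1 had 69.3 (63.2 to 76.0) and 70.6 (65.2 to 76.4) reads in IDO1 cells with indole and with DMF, against 89.4 (82.4 to 97.0) and 64.5 (59.5 to 69.8) in wild type cells. Wild type with indole was above the other 3 libraries in this ratio, whose intervals overlapped. Between lines, TAP1 was 1.41-fold lower (1.29 to 1.55) in IDO1 cells in indole, and in DMF its ratio was 0.958 (0.879 to 1.05), or 1.03 with library totals. TAP2 was 1.10-fold lower (1.01 to 1.19) in indole and 1.14-fold lower (1.06 to 1.23) in DMF.

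TAPBP, which encodes tapasin, the bridge between TAP and the heavy chain, had few reads. There were 67 and 114 in IDO1 cells with indole and with DMF, against 134 and 95 in wild type cells. It was 1.43-fold lower (1.05 to 1.96) with indole in IDO1 cells and 1.55-fold higher (1.18 to 2.04) with indole in wild type cells. Wild type with indole was highest, and neighbours among the other 3 libraries did not differ beyond counting error. Between lines, TAPBP was 1.98-fold lower (1.46 to 2.69) in IDO1 cells in indole, and in DMF the ratio was 1.12 (0.844 to 1.48).

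Of 8 genes of peptide loading and trimming, 5 reached 10 CPM in at least 1 library. ERAP1, the aminopeptidase that trims peptides in the endoplasmic reticulum, did so only in wild type with indole, which fixes the direction of its folds. It had 5.80 and 4.86 CPM in IDO1 cells with indole and with DMF, against 12.2 and 6.30 CPM in wild type cells. ERAP1 was 1.94-fold higher (1.57 to 2.42) with indole in wild type cells, and 2.11-fold lower (1.68 to 2.67) in IDO1 cells in indole. CANX, the chaperone calnexin, was 1.17-fold lower (1.14 to 1.19) with indole in IDO1 cells and 1.19-fold lower (1.16 to 1.22) with indole in wild type cells. CALR, the chaperone calreticulin, was 1.11-fold lower (1.10 to 1.13) with indole in IDO1 cells. In wild type cells it was lower too, with 1876 CPM with indole against 2033 with DMF. PDIA3, a disulfide isomerase of the loading complex, was 1.11-fold lower (1.06 to 1.16) in IDO1 cells in DMF, and UGGT1, a folding sensor, was 1.19-fold lower (1.01 to 1.41) there in indole. Of 6 genes of this list tested, 0 passed for line and 0 for indole by edgeR.

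PSMB9, a catalytic subunit of the immunoproteasome, had 91 and 99 reads in IDO1 cells with indole and with DMF, against 183 and 128 in wild type cells. Its level was 4.75 CPM (3.83 to 5.84) with indole and 4.34 CPM (3.53 to 5.28) with DMF in IDO1 cells, against 9.46 CPM (8.14 to 10.9) and 6.02 CPM (5.02 to 7.16) in wild type cells. Wild type with indole was highest, and the IDO1 libraries did not differ beyond counting error. The ratio of indole to DMF was 1.10 (0.815 to 1.47) in IDO1 cells, and in wild type cells PSMB9 was 1.57-fold higher (1.25 to 1.99). Between lines, PSMB9 was 1.99-fold lower (1.54 to 2.59) in IDO1 cells in indole and 1.39-fold lower (1.06 to 1.82) in DMF. The additive line effect of -0.74 (SE 0.31) had an adjusted p of 0.347 by edgeR. With line alone as the factor, the effect was -1.07 without the wild type library with DMF and -0.41 without the wild type library with indole. It was -0.70 without the IDO1 library with DMF and -0.84 without the IDO1 library with indole. PSMB8, which replaces PSMB5 in the immunoproteasome, had 3 and 2 reads in IDO1 cells with indole and with DMF, against 1 and 3 in wild type cells. These are at or under the floor of 3 reads, so no fold is given, and a difference was not detectable with so few reads. An antisense gene, PSMB8-AS1, overlaps PSMB8 and TAP1 in the annotation, and whether the counting used strand is not given, so reads of these pairs cannot be told apart.

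The standard subunits that the immunoproteasome subunits displace were lower with indole in wild type cells. PSMB6, the counterpart of PSMB9, had 432 and 417 CPM in IDO1 cells with indole and with DMF, against 261 and 434 CPM in wild type cells, where it was 1.67-fold lower (1.61 to 1.72) with indole. PSMB7 was 1.40-fold lower (1.34 to 1.46) and PSMB5 1.31-fold lower (1.26 to 1.36) there, and in IDO1 cells the indole ratio was 1.04 (1.01 to 1.07) for PSMB6, 1.05 (1.02 to 1.09) for PSMB7 and 1.01 (0.968 to 1.04) for PSMB5. PSMB9 reads per 100 PSMB6 reads were 1.10 (0.885 to 1.35) with indole and 1.04 (0.844 to 1.27) with DMF in IDO1 cells, against 3.63 (3.11 to 4.20) and 1.39 (1.16 to 1.65) in wild type cells. PSMB10, the remaining immunoproteasome subunit, did not follow PSMB9. It had 52.4 and 47.2 CPM in IDO1 cells with indole and with DMF, against 38.2 and 52.5 CPM in wild type cells, where it was 1.38-fold lower (1.25 to 1.51) with indole. Per 100 reads of its counterpart PSMB7, PSMB10 had 18.8 (17.5 to 20.1) and 17.9 (16.7 to 19.1) in IDO1 cells with indole and with DMF, against 21.0 (19.4 to 22.8) and 20.7 (19.3 to 22.0) in wild type cells. POMP, the proteasome assembly factor, was 2.02-fold higher (1.65 to 2.49) in IDO1 cells than in wild type in indole, and 1.83-fold lower (1.49 to 2.26) with indole in wild type cells, the 1 library where it was under 10 CPM. PSME1 and PSME2, subunits of the interferon-inducible PA28 cap, were 1.17-fold lower (1.10 to 1.25) and 1.37-fold lower (1.27 to 1.47) in IDO1 cells in DMF. Of these 3 standard subunits and 4 partner genes, 0 passed for line and 0 for indole by edgeR.

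**Figure D2:**
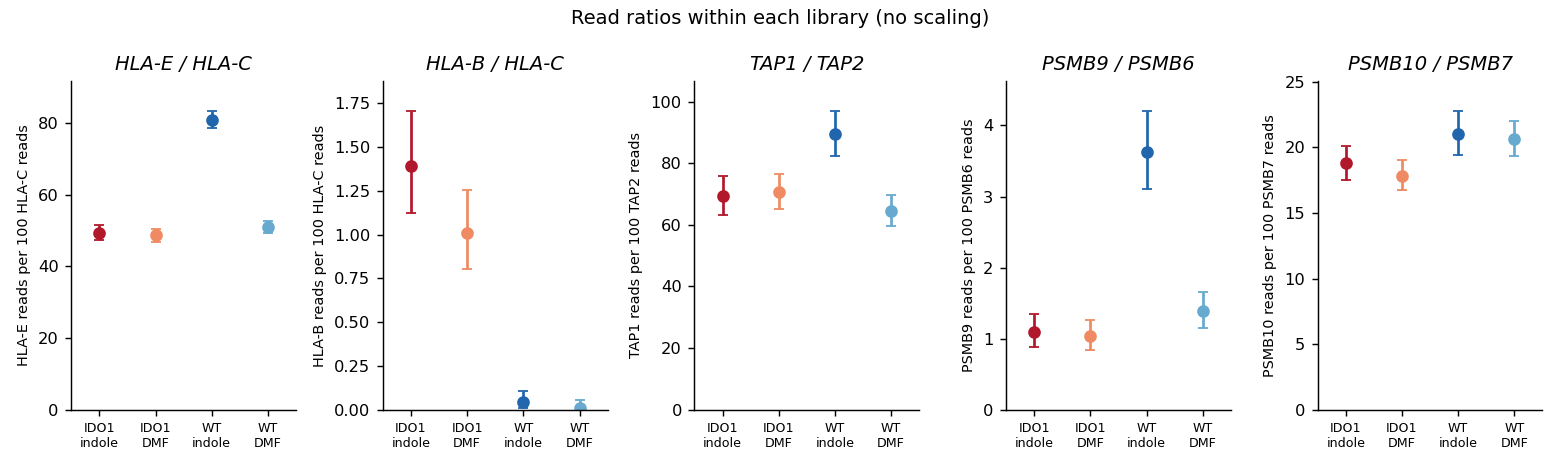
Reads of 1 gene per 100 reads of a partner gene (y axis, from 0) within each library (x axis), with 95% Clopper-Pearson intervals as bars, which no choice of scaling moves. Wild type with indole stands above the other 3 libraries for HLA-E to HLA-C, TAP1 to TAP2 and PSMB9 to PSMB6, the IDO1 libraries stand above wild type for HLA-B to HLA-C, and PSMB10 to PSMB7 spans 17.9 to 21.0.

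Set side by side, the comparisons differed in how many members they moved. The count takes genes with at least 10 CPM in 1 of the 2 libraries and a ratio of at least 1.5-fold on CPM plus 1, a scale that understates the change of low genes. B2M, HLA-C, HLA-E, TAP1 and TAP2 passed that minimum in every comparison, and HLA-B, TAPBP, PSMB8 and PSMB9 in none. With indole in wild type cells, 1 of 5 members was at least 1.5-fold higher, HLA-E, and 0 were lower, against 7.09% of 8679 genes higher and 9.72% lower. The median log2 ratio of the 5 was 0.12, and that of all genes -0.04. With indole in IDO1 cells, 0 of 5 were higher or lower, against 0.434% and 0.282% of 8523 genes, and the median was -0.03, beside -0.01 for all genes. The higher levels of HLA-E, TAP1, TAPBP and PSMB9 with indole in wild type cells rest on a library that differed from its control in many genes.

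Between lines in DMF, 0 of 5 members were at least 1.5-fold apart, against 0.894% of 8500 genes higher and 1.26% lower in IDO1 cells. All 5 lay below 0, with a median of -0.19 beside -0.01 for all genes, though B2M and TAP1 lay above 0 with library totals. In indole, 1 of 5, HLA-E, was at least 1.5-fold lower and 0 were higher, against 9.75% of 8765 genes lower and 11.6% higher, with a median of -0.49 beside 0.03 for all genes. HLA-B passed a minimum of 1 CPM only through the IDO1 libraries, which fixes its direction there. With that minimum in place of 10, HLA-B was the 1 member at least 1.5-fold higher in DMF and 0 were lower, against 3.29% of 12375 genes higher and 1.92% lower. In indole HLA-B was higher and HLA-E, TAPBP and PSMB9 were lower by that measure, against 11.9% of 12536 genes higher and 11.5% lower. The comparisons share libraries, so their values are not independent of each other.

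**Figure D3:**
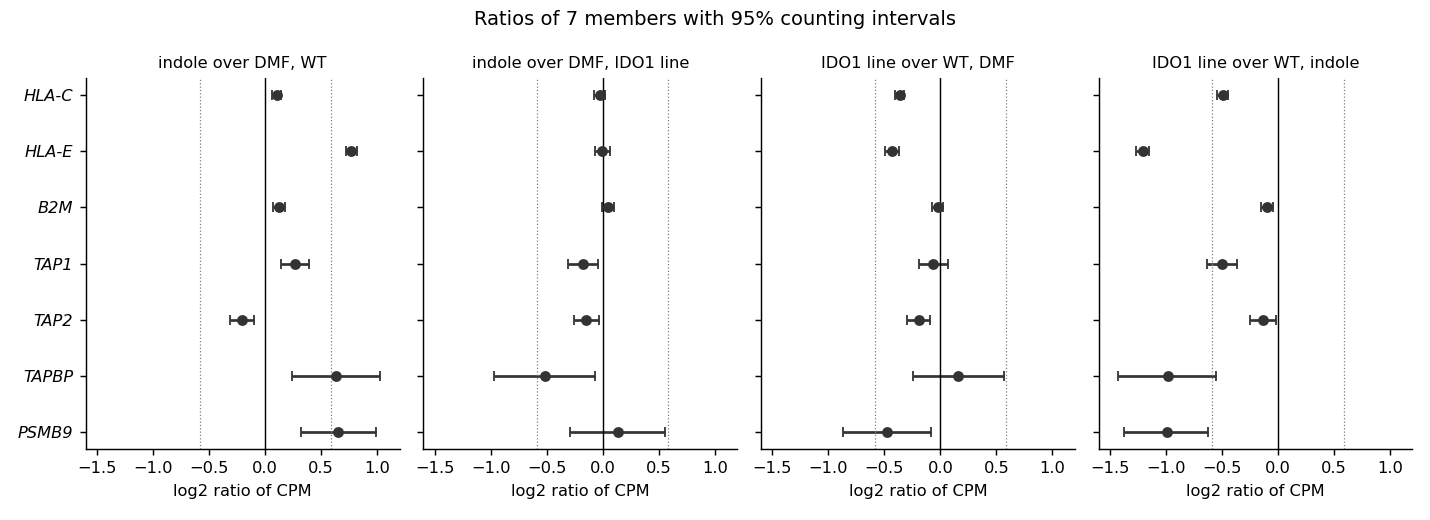
Log2 ratios of CPM (x axis) of 7 members (y axis) in the 4 comparisons, with 95% counting intervals as bars, a solid line at no difference and dotted lines at 1.5-fold. HLA-B and PSMB8 are left out for their low reads, and HLA-E is 1.70-fold higher with indole in wild type cells and 2.31-fold lower in IDO1 cells than in wild type in indole.

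The log2 response to indole in IDO1 cells minus that in wild type cells was -0.77 (-0.86 to -0.69) for HLA-E, -0.44 (-0.62 to -0.26) for TAP1 and -0.13 (-0.19 to -0.07) for HLA-C. For TAPBP the difference was -1.15 (-1.72 to -0.57), for PSMB9 -0.52 (-1.04 to 0.00), for B2M -0.07 (-0.15 to 0.00) and for TAP2 0.06 (-0.10 to 0.21). Of the 5 members with at least 10 CPM in a library, 1 had a response at least 1.5-fold lower and 0 higher, where 9.84% of 8845 genes were lower and 12.4% higher. The difference of the responses was not tested, as the design leaves no replicate for it. In the additive fit, 0 of 8 members rose or fell with indole by edgeR, and 0 had an unadjusted p under 0.05 by edgeR and by DESeq2, where 0% of 13122 genes passed. Over all genes, 448 had an unadjusted p under 0.05 by edgeR, and DESeq2 passed 0 with 127 under that value.

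NLRC5 and IRF1, known activators of class I genes, were also highest in wild type with indole. NLRC5 had 14.2 and 14.0 CPM in IDO1 cells with indole and with DMF, against 25.2 and 14.4 CPM in wild type cells. It was 1.75-fold higher (1.51 to 2.02) with indole in wild type cells, and its ratio in IDO1 cells was 1.02 (0.862 to 1.20). IRF1, a transcription factor induced by interferon gamma, was 1.15-fold lower (1.03 to 1.28) with indole in IDO1 cells and 1.57-fold higher (1.42 to 1.74) in wild type cells. NFYB, a subunit of the Y box factor NF-Y, was 1.66-fold lower (1.33 to 2.07) with indole in wild type cells, where it was under 10 CPM with indole and over it with DMF. NFYA, another NF-Y subunit, was 1.26-fold higher (1.17 to 1.36) in IDO1 cells in DMF. RELA, the p65 subunit of NF-kB, was 1.20-fold lower (1.13 to 1.28) with indole in IDO1 cells. Of 10 listed factors tested, 0 passed for line and 0 for indole by edgeR.

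Of 13 interferon receptor and signalling genes in the files, STAT2 and IRF9, partners in the type I interferon response complex, differed most among those with at least 10 CPM. STAT2 had 54.1 and 51.4 CPM in IDO1 cells with indole and with DMF, against 126 and 61.0 CPM in wild type cells, where it was 2.07-fold higher (1.93 to 2.22) with indole. IRF9 was 1.91-fold lower (1.67 to 2.19) in IDO1 cells in indole, and 1.40-fold higher (1.24 to 1.57) with indole in wild type cells. IFNGR1, an interferon gamma receptor chain, was 1.38-fold higher (1.13 to 1.69) with indole in IDO1 cells, and JAK1, a kinase it signals through, was 1.23-fold higher (1.09 to 1.39). Wild type cells went the same way, with 11.2 CPM with indole against 8.32 with DMF for IFNGR1, and 31.7 against 26.3 for JAK1. IFNGR1 reached 10 CPM only in the indole libraries, which fixes the direction of its fold. IFNG had 0 reads in every library, and IFNB1 had 1 read in wild type with indole and 0 elsewhere. Among interferon-induced genes outside the pathway, GBP2, a guanylate-binding protein, was 4.20-fold lower (3.06 to 5.88) in IDO1 cells in indole, and UBE2L6, an ISG15-conjugating enzyme, was 1.81-fold lower (1.56 to 2.09). GBP2 reached 10 CPM only in wild type with indole, which fixes the direction of its fold. IFI35 was 1.57-fold higher (1.39 to 1.76) with indole in wild type cells, and IFI6 was 1.29-fold lower (1.20 to 1.39) in IDO1 cells in DMF. By edgeR, 0 of 14 such genes tested passed for line, with a smallest adjusted p of 0.0738 for GBP2.

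**Figure D4:**
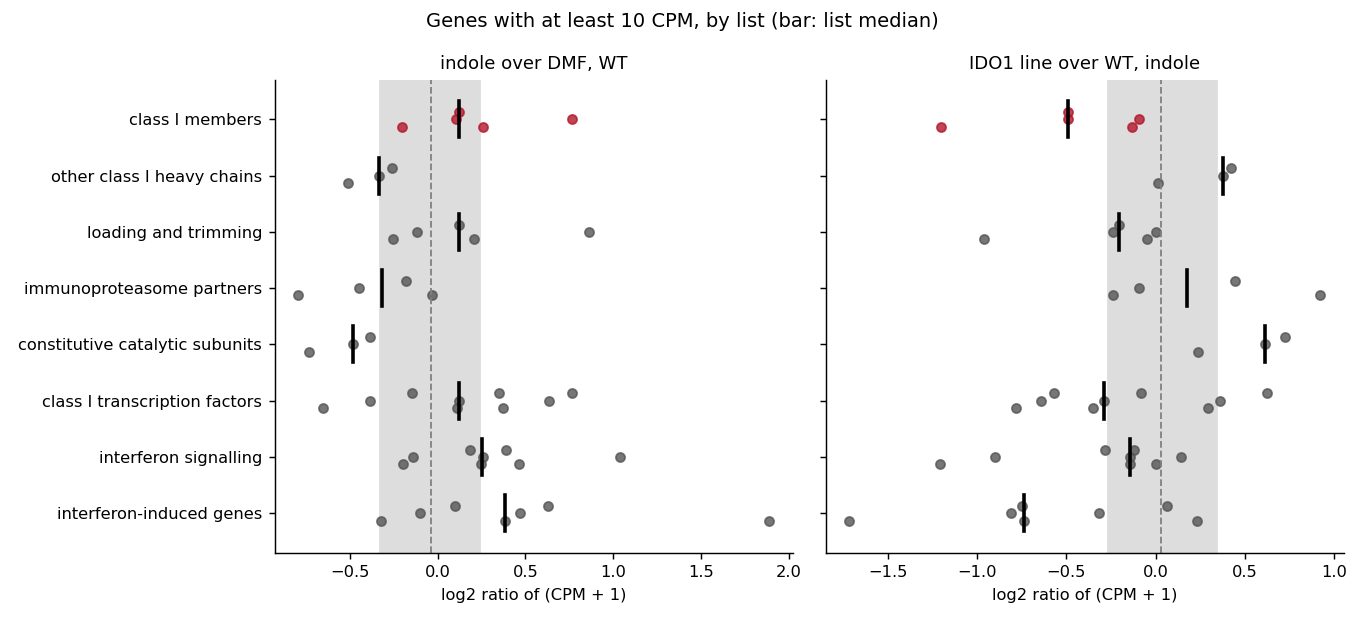
Log2 ratios of CPM plus 1 (x axis) of single genes (points) with at least 10 CPM in 1 of the 2 libraries, by list (y axis), with bars for list medians, a dashed line for the median of all genes and a grey band between their quartiles. Class I members have medians of 0.12 with indole in wild type cells and -0.49 between lines in indole, and the constitutive catalytic subunits have -0.48 and 0.62.

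The genes outside these lists whose pattern over the 4 libraries lay closest to the mean of the 9 members were VAV2, PI4KAP1, PTK7, SPPL2B and ZNF384, at Euclidean distances of 0.02 to 0.04 on the centred log2 scale. They were found among 6948 genes with a profile at least as wide as that mean, which spans 0.25. Without HLA-B and PSMB8, a choice made after their values were seen, the mean spans 0.58 and the closest of 2575 genes were DCBLD2, LTA4H, STEAP2, PYGB and FHL2. With 4 libraries such likeness is a description of these samples.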

How the data were processed

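Libraries were barcoded amplicon libraries for Ion sequencers, per the labels' protocols. The deposited files hold raw read counts per amplicon target, in 1 column each, and the authors applied no normalization to these whole numbers, as the file headers and values show. The submitters' processing notes name hg19, and the sources used here do not give the aligner or counter. The design text states 2 replicates, but whether a column pools them is not stated, so each group was taken as 1 library. Separate cultures are not stated, and p-values reflect differences between these 4 libraries, technical ones included.

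Counts were scaled by TMM (edgeR 4.0.16, R 4.3.3) over all 4 libraries. Folds are ratios of scaled CPM with exact 95% Clopper-Pearson intervals, levels have exact Poisson intervals, and differences of responses have delta-method intervals. PCR reads are not independent molecules, so all intervals cover counting error only. The floor of 3 reads was 0.131 to 0.157 CPM. The additive fits used edgeR's quasi-likelihood test on genes kept by filterByExpr, with 1 residual degree of freedom, which holds the interaction plus library noise, and an SE back-calculated from the F statistic. Alternatives were other scalings, pseudocounts and minimums, DESeq2 1.42.0, and leaving out each library. Genes named beside the members and IDO1 were, for each list and comparison, the 2 with the largest log2 ratio, all standard catalytic subunits and the 5 closest profiles. HFE and genes named for having few or no reads were chosen after their values were seen. Some listed genes are not reported here. The members and lists were chosen with earlier results of these data known.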

Additional observations from a re-analysis of the deposited data

Results flagged for a closer look

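TAP1 and TAPBP had indole ratios on opposite sides of 1 in the lines, each beyond counting error. The log2 response of TAP1 in the IDO1 line minus that in wild type was -0.44, and that of TAPBP was -1.15. Of 8845 genes compared, 15.7% had a lower value than TAP1, and the quartiles of all were -0.27 and 0.36. TAPBP was under the minimum of 10 CPM and was not among them. Each line gave 1 pair of libraries, so the difference between the lines was not tested. The TAPBP value rests on 67 to 134 reads per library.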

How the results depend on the processing

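With library totals, at least 1.5-fold were 2 members higher with indole in wild type, 2 lower between lines in indole and 2 with a lower response, against 1 each. The whole table moved too. Genes higher with indole in wild type went from 615 to 1235, and genes lower between lines in indole from 855 to 1106. The median of all genes with indole in wild type moved by 0.17. With a minimum of 1 CPM, 1 member was higher between lines in DMF, and 1 higher and 3 lower in indole. For line, the 267 genes that rose and 55 that fell became 76 and 12 by DESeq2. With at least 10 CPM in 2 libraries 27 rose and 49 fell, HLA-B was not tested and 0 members rose. With no filter 305 of 16748 genes rose and 113 fell, and with library totals 303 of 13122 rose and 81 fell. HLA-E also fell, as 1 member, with library totals (adjusted p = 0.0222 by edgeR) and with no filter (adjusted p = 0.0474 by edgeR). HLA-E did not pass with at least 10 CPM in 2 libraries (adjusted p = 0.0607 by edgeR) or by DESeq2 (adjusted p = 0.154 by DESeq2). Leaving out each library, with line alone as the factor, gave 79 to 2362 genes that rose and 1 to 1954 that fell (96 and 1 without IDO1 with indole, 79 and 1 without IDO1 with DMF, 318 and 179 without wild type with indole, 2362 and 1954 without wild type with DMF), 1 member that rose in every case, and 0 to 5 that fell. The 5, without wild type with DMF, were HLA-C, HLA-E, PSMB9, TAP1 and TAPBP. For indole, 6 genes rose with library totals, 9 rose and 1 fell with no filter, 5 rose with at least 10 CPM in 2 libraries, and leaving out a library gave 0 to 60 that rose and 0 to 49 that fell (60 and 49 without IDO1 with indole, 0 without any other), with 0 members in all of these. The lone library of a line or treatment is assumed to vary like the others. The cause of these shifts was not tested. Median-of-ratios factors, pseudocounts of 0.25 and 5 and a minimum of 50 CPM left the member counts as they were. Members under about 10 CPM are limited by few reads, and the part of depth and of the PCR target in this was not tested. No paired analysis was possible because each group was 1 library and the labels carry no replicate numbers.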

Other observations

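Class II presentation genes, which load peptides taken up from outside the cell, had few reads. CIITA, the class II transactivator, had 0 reads in IDO1 cells with indole and with DMF, against 5 and 0 reads in wild type cells with indole and with DMF. CD74, the invariant chain, had at most 1 read in any library. HLA-DRA had 28 and 24 reads in IDO1 cells with indole and with DMF, against 25 and 38 in wild type cells with indole and with DMF. HLA-DMA, a class II peptide exchange factor, was the 1 class II gene of the list that reached 10 CPM, which it did only in wild type with DMF. Set against that library, which fixes the direction, it was 1.37-fold lower (1.12 to 1.69) in IDO1 cells in DMF and 1.27-fold lower (1.03 to 1.58) with indole in wild type cells. Of 6 class II genes tested by edgeR, 0 passed for line and 0 for indole. CD274, the checkpoint ligand PD-L1, had 30 to 44 reads in every library.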
